A study of Mus musculus with 9 samples.

Results

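Immediate early genes are genes that a cell can switch on within minutes of a stimulus, without making new protein first. The 10 described here are Fos, Fosb, Jun, Junb, Egr1, Nr4a1, Atf3, Ccn1, Dusp1 and Ier2. They were chosen by gene symbol, 1 probe set per gene (the one with the highest mean signal), out of 23069 genes that the array annotation names. All 10 members were measured, each by a single probe set, and Ccn1 is listed under its older symbol Cyr61. RNA came from the left ventricle of male mice, with 1 array per sample and 3 arrays in each of 3 groups. The groups were wild-type mice and LRAT -/- mice (written Lrat-/- from here on) that both ate a diet containing retinol palmitate at 250000 U/kg, and further Lrat-/- mice fed the same diet without that supplement. The animals were killed after 50 days on the diet. No wild-type group ate the unsupplemented diet. Lrat encodes the enzyme that turns retinol into its storage esters. The labels give neither the age or strain of the mice, nor how the Lrat allele was made, nor whether an RNA came from a single animal. P-values therefore measure only the spread between these samples.

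Most members encode transcription factors. Fos and Jun proteins pair through leucine zippers to form AP-1, Egr1 is a zinc finger factor, and Nr4a1 is an orphan nuclear receptor. Their promoters are held ready and respond to serum response factor and CREB once growth factor, stretch, calcium or cAMP signals arrive, and in the heart they are known to rise with pressure load, adrenergic drive, ischaemia and handling of the tissue. Their messenger RNAs are short-lived, and Dusp1, a phosphatase that switches off MAP kinases, belongs to the feedback that ends the response.

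The members share sequence close to their start sites that the choice by name did not use. RefSeq promoter sequences (build GRCm38.p6) were found for 8 of the 10, all but Egr1 and Ier2. In the 250 bases upstream of the start, 7 of the 8 contain TGACG on either strand, the core of the cAMP response element bound by CREB and ATF factors. The same letters occur in 17.8% of all 32851 promoter windows of that length in the table. Jun, the member without it, contains TGACATCA, an AP-1 type element, which 2.93% of the windows hold. Stretches of 80 bases are shown for 6 of these 8 members, read 5′ to 3′ along the gene. Among the 8 they stood out most on 1 array below, while Egr1, which stood out more, has no sequence here. Capitals mark TGACG, its reverse complement, the full element TGACGTCA (which contains TGACG on both strands, and which 1.55% of the windows hold) or TGACATCA.
Fos, chr12:85473810-85473889, plus strand: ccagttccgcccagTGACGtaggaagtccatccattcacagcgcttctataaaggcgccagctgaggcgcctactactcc
Nr4a1, chr15:101266766-101266845, plus strand: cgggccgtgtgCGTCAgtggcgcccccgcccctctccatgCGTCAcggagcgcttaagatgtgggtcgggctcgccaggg
Atf3, chr1:191183334-191183413, minus strand: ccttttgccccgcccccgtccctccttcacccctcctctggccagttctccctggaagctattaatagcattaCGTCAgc
Ccn1, chr3:145649986-145650065, minus strand: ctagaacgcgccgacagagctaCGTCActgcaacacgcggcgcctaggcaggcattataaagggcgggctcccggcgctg
Dusp1, chr17:26508598-26508677, minus strand: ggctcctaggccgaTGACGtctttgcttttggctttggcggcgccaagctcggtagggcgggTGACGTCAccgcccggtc
Jun, chr4:95052223-95052302, minus strand: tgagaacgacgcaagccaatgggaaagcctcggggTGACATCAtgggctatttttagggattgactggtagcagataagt
A match is a description of the letters and not evidence that a factor binds. The stretches end at the base before the annotated start, except that of Dusp1, which runs from base -205 to base -126.

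The signals are log2 values after RMA, the normalization in which arrays are brought to one distribution and the probes of a gene are summarised. Array medians lay between 6.38 and 6.43. That normalization makes them alike, so they do not show how alike the arrays were before it. The 5222 negative control probe sets had a 95th percentile of 7.58, called the background limit from here on, and a signal under it is hard to tell from background. Cardiomyocyte markers were bright on every array, with Tnnt2 (cardiac troponin T) at 13.96 to 14.10. Of 4 atrial markers Sln was at 4.93 to 5.39 and Myl7 at 7.03 to 8.39. The others, Myl4 at 8.50 to 9.27 and Nppa at 9.52 to 12.30, lay above the background limit on every array. Lrat, the targeted gene, had 5.73 to 5.81 in wild type, and the arrays labelled Lrat-/- were higher, at 7.29 to 7.38 with sufficient and 6.78 to 6.96 with deficient diet. The order of these signals goes against the labels, and the groups did not overlap. Every one of the signals lay under the background limit. Where the Lrat probes lie relative to the deletion is not stated, and a probe outside the deleted part would check nothing. Lrat-/- below therefore means the genotype on the label.

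All 10 immediate early genes had their highest signal of the 9 arrays on wild-type array 1. That array was the highest for 18.3% of all genes. Averaged over the members, each set to 0 at its own mean over the 9 arrays, wild-type array 1 stood at 1.13 (log2), while the other 8 arrays lay between -0.23 and 0.04. No other array was the highest for any member. The arrays labelled Lrat-/- lay between -0.23 and -0.02. Wild-type array 3, at -0.13, lay within that range, and wild-type array 2, at 0.04, lay slightly above it.

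The zinc finger factor Egr1 stood out most, and the nuclear receptor Nr4a1 varied on other arrays too. Egr1 (probe set 10454782) had a signal of 10.79 on wild-type array 1 and 7.998 on both wild-type arrays 2 and 3. It had 8.13, 7.59 and 7.998 in Lrat-/- with sufficient diet, and 7.61, 7.73 and 7.998 with deficient diet. The gap between wild-type array 1 and the next-highest array was 2.66 (6.32-fold), and the other 8 arrays spanned 0.54. The value of 7.998 was identical to the last deposited digit on 4 arrays, so differences among those arrays are not resolved for Egr1. Nr4a1 (10427035) had 9.52, 8.13 and 7.78 in wild type, 7.74, 8.12 and 6.96 in Lrat-/- with sufficient diet, and 7.45, 7.57 and 7.67 with deficient diet. Wild-type array 1 stood 1.39 above the next (2.62-fold). For Nr4a1 Lrat-/- sufficient array 3 was the lowest of all, and the other 8 arrays spanned 1.17. Only 6 of the 9 Nr4a1 signals were above the background limit, and those of 6.96, 7.45 and 7.57 were not, so the sizes given for Nr4a1 are uncertain.

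Among the AP-1 genes Fos was the clearest. Fos (10397346) had 8.46, 6.77 and 6.64 in wild type, 6.78, 6.51 and 6.66 in Lrat-/- with sufficient diet, and 6.41, 6.48 and 6.65 with deficient diet. Only wild-type array 1 was above the background limit, so the gap of 1.68 (3.20-fold) is measured from a level near background and its size is uncertain. Jun (10514466), the main partner of Fos, had 10.23, 9.55 and 9.11 in wild type, 9.46, 9.17 and 9.29 in Lrat-/- with sufficient diet, and 9.33, 9.50 and 9.40 with deficient diet. All 9 of these signals were above the background limit, and the gap on wild-type array 1 was 0.68 (1.60-fold). Atf3, a stress-induced partner of Jun (10361091), had 8.59, 7.52 and 7.22 in wild type. It had 7.52, 7.39 and 7.40 in Lrat-/- with sufficient diet, and 7.57, 7.38 and 7.61 with deficient diet, which left a gap of 0.98 (1.97-fold). Wild-type array 3 was the lowest of the 9 for Jun and Atf3, so the wild-type group held both the highest and the lowest array for these genes.

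Junb and Fosb showed the smallest gaps of the AP-1 genes. Junb (10580282), an AP-1 subunit that often restrains Jun, had 8.07, 7.52 and 7.72 in wild type, 7.64, 7.52 and 7.47 in Lrat-/- with sufficient diet, and 7.63, 7.49 and 7.44 with deficient diet. Its gap was 0.35 (1.27-fold). Fosb (10560481), the closest relative of Fos in the list, had 6.64, 6.18 and 6.16 in wild type, 6.002, 6.18 and 6.52 in Lrat-/- with sufficient diet, and 6.05, 6.29 and 6.21 with deficient diet. Every Fosb signal lay under the background limit, and Lrat-/- sufficient array 3 came within 0.12 of wild-type array 1.

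The remaining members, which are not AP-1 or receptor genes, followed the same array. Ccn1 (10502655), a secreted matrix protein that binds integrins, had 10.12, 9.25 and 9.13 in wild type, 9.06, 8.34 and 8.71 in Lrat-/- with sufficient diet, and 8.996, 8.90 and 8.94 with deficient diet. Here all 3 wild-type arrays lay above all 6 arrays labelled Lrat-/-, and the gap on wild-type array 1 was 0.87 (1.83-fold). Dusp1 (10449284) had 11.82, 10.79 and 10.51 in wild type, 11.01, 10.75 and 10.27 in Lrat-/- with sufficient diet, and 10.68, 10.34 and 10.22 with deficient diet, with a gap of 0.80 (1.75-fold). Ier2 (10580183), a nuclear protein of the early response, had 7.62, 7.21 and 6.99 in wild type, 6.99, 6.78 and 6.99 in Lrat-/- with sufficient diet, and 6.85, 6.83 and 6.99 with deficient diet. Its gap was 0.41 (1.33-fold), and 4 arrays shared the identical value of 6.99.

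**Figure D1:**
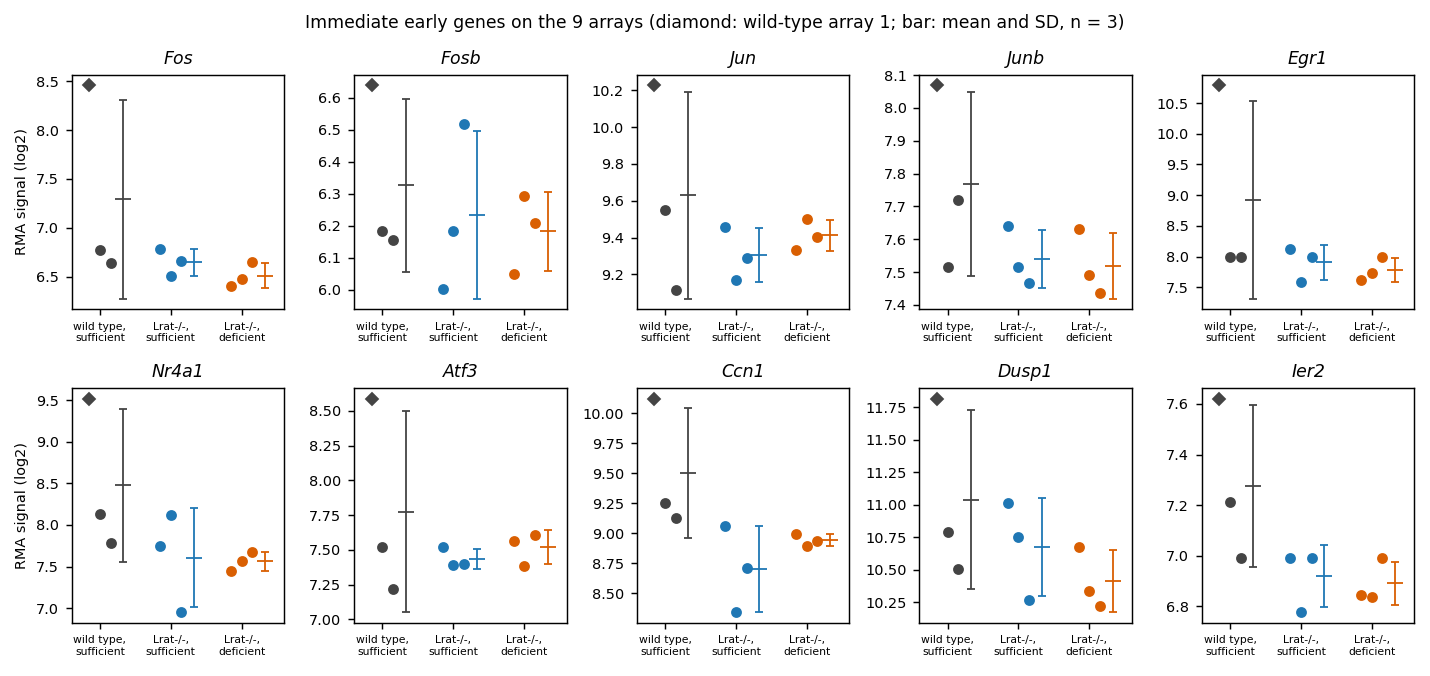
RMA signal (log2, y axis, a separate range for each gene) of the 10 immediate early genes on each of the 9 arrays, by group, with the group mean and SD (n = 3) to the right of the points. The diamond, wild-type array 1, is the highest point in every panel. Ccn1 is the only panel in which all 3 wild-type points lie above all 6 others.

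Set against every gene on that array, the members held high ranks in the gap between wild-type array 1 and the next-highest array. Egr1 ranked 1, Fos 3, Nr4a1 7, Atf3 12, Ccn1 16, Dusp1 17 and Jun 26 of 23069 genes. Ier2 ranked 117, Junb 207 and Fosb 1628. Only 10 genes (0.0433%) stood over 2-fold above all 8 other arrays there, and 3 of them were the members Egr1, Fos and Nr4a1. The other 7, named after their values were seen, were Thbs1 (thrombospondin 1, a gap of 1.83), Egr2 (1.66), Il1a (interleukin 1 alpha, 1.60), the HSP70 genes Hspa1b (1.54) and Hspa1a (1.25), Clec4e (1.22) and Irg1 (1.07). Egr2, Hspa1a, Il1a, Clec4e and Irg1 stayed under the background limit on the other 8 arrays, and the last 3 of these were under it on wild-type array 1 too, at 6.82, 6.29 and 7.05. Wild-type arrays 2 and 3 had 9 and 5 such genes of their own and the arrays labelled Lrat-/- from 0 to 4, with no member among them.

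**Figure D2:**
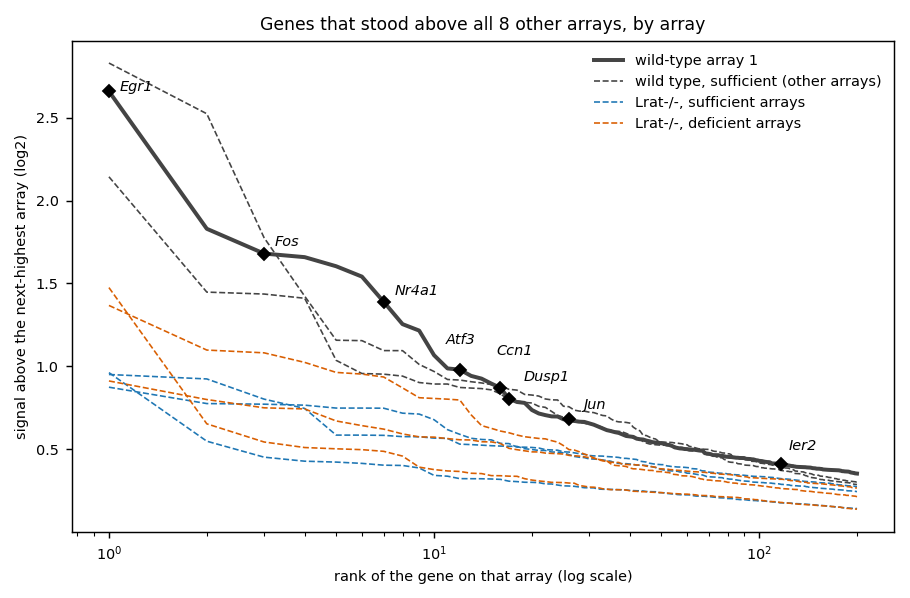
For each of the 9 arrays, the 200 genes with the largest gap in signal (log2) over the next-highest array, in order of rank (log scale). The thick line is wild-type array 1, on which diamonds mark 8 of the members, with Egr1 first at 2.66. The dashed lines are the other arrays, of which wild-type arrays 2 and 3 reach 2.83 and 2.14 with genes that are no members.

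Within groups the members were among the more variable genes, and wild-type array 1 carried much of that spread. The SD about the group means exceeded that of 98.4% of all genes for the median member, from 78.5% for Junb to 99.9% for Egr1. With wild-type array 1 left out the median member exceeded 80.8% of genes. Fos went from 99.6% to 55.0% and Atf3 from 98.6% to 58.6%, while Nr4a1 remained at 98.6% and Dusp1 at 96.2%, so these last varied among the other 8 arrays too.

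The comparison on the sufficient diet asks whether the genotype alters these genes while vitamin A is supplied. None of the 10 members passed an adjusted p of 0.05 (limma, Benjamini-Hochberg over all genes), where 0.134% of all genes did. All 10 had lower means on the arrays labelled Lrat-/-, against 50.4% of all genes, with a median difference of -0.36 (log2) against 0.00 over all genes. The largest differences were in Egr1 at -1.02 ± 0.63 (SE, n = 3 and 3 arrays, adjusted p = 0.789), Nr4a1 at -0.87 ± 0.42 (adjusted p = 0.736), Ccn1 at -0.80 ± 0.25 (adjusted p = 0.545) and Fos at -0.64 ± 0.39 (adjusted p = 0.789). Of the 10, 2 (Ccn1, and Ier2 at -0.36 ± 0.14) had an unadjusted p under 0.05, against 6.9% of all genes, and only in Ccn1 did the groups not overlap, against 7.96%.

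Most of those differences shrank towards 0 without wild-type array 1, while Ccn1, Ier2 and Nr4a1 kept more of theirs. That array was the highest for all 10 members, so leaving it out had to raise every difference from wild type. The direction of the shift, here and in the next comparison, is therefore no finding, and only its size is described. Without it, 7 members were lower and 3 higher, while 47.4% of all genes were lower. The members' median was -0.07, against 0.01 over all genes. Egr1 went to -0.09 ± 0.17, Fos to -0.06 ± 0.11, Jun from -0.32 ± 0.23 to -0.03 ± 0.14 and Dusp1 from -0.36 ± 0.32 to 0.03 ± 0.22. Nr4a1 was then at -0.35 ± 0.29, Ier2 at -0.18 ± 0.10 and Ccn1 at -0.49 ± 0.18, the largest of the 10 (unadjusted p = 0.0242, limma, and adjusted p = 0.544). It was the only member with an unadjusted p under 0.05 (limma) in that fit, against 1856 of 23069 genes. Ccn1 thus kept the largest share of its difference among the members in this comparison.

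Taking genotype and diet together, Lrat-/- on the deficient diet was set against wild type on the sufficient diet, a comparison that uses the same 3 wild-type arrays. Again 0 members passed, against 0.13% of all genes, while all 10 were lower, against 50.2%, with a median of -0.47. Mean signals of endothelial markers (median -0.38) and red cell markers (median 1.03) were also unequal between these groups, with 0 past the same threshold. Egr1 was at -1.149 ± 0.63 (limma, adjusted p = 0.62), Nr4a1 at -0.91 ± 0.42, Fos at -0.78 ± 0.39, Dusp1 at -0.63 ± 0.32 and Ccn1 at -0.56 ± 0.25 (SE, n = 3 and 3). Ier2, at -0.38 ± 0.14, had the lowest adjusted p of the members (limma, adjusted p = 0.484) and was the only one with an unadjusted p under 0.05, against 9.04% of all genes. The groups did not overlap in Nr4a1 and Ccn1, against 11.5% of genes. Without wild-type array 1 the median was -0.20, against 0.005 over all genes. Then 7 members were lower and 3 higher, while 47.8% of all genes were lower. Egr1 was at -0.22 ± 0.17 and Atf3 at 0.15 ± 0.11.

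Between diets, within the mice labelled Lrat-/-, the members were close to level. None passed limma's adjusted p of 0.05, nor did any gene of the array (0%), and none had an unadjusted p under 0.05, against 4.38% of all genes (1010 genes). On the deficient diet 7 were lower and 3 higher, against 50.5% lower of all genes, with a median of -0.04. The differences ran from -0.26 ± 0.32 in Dusp1 to 0.24 ± 0.25 in Ccn1 (SE, n = 3 and 3), and adjusted p-values from 0.963 to 0.997. No member had groups without overlap, against 9.67% of genes. Wild-type array 1 enters this comparison only through the shared estimate of spread, and without it the SE of Egr1 fell from 0.63 to 0.15 at an unchanged difference of -0.13. Over all 3 groups at once, 0 members passed a moderated F test (lowest adjusted p = 0.663, Ccn1), against 0.121% of genes.

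**Figure D3:**
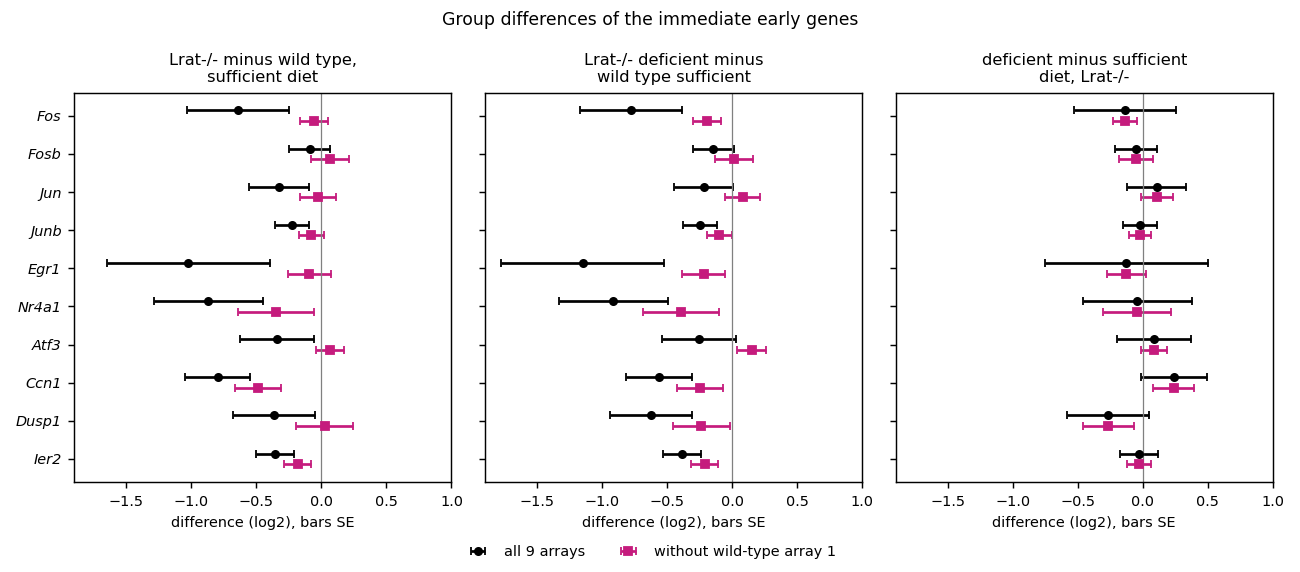
Difference in mean signal (log2, x axis) of each immediate early gene in the 3 comparisons, with all 9 arrays (black circles) and without wild-type array 1 (pink squares). Bars are standard errors of the limma model. Without that array, the highest for every member, the differences from wild type must move upward, Egr1 from -1.02 to -0.09 on the sufficient diet. Those between diets stay where they were with shorter bars.

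The authors' deposited table gives the same direction for the members against wild type. Its ratio of Lrat-/- on the sufficient diet to wild type was 0.606 for Egr1, 0.669 for Fos, 0.632 for Nr4a1, 0.638 for Ccn1 and 0.997 for Fosb. On the log2 scale these are -0.72, -0.58, -0.66, -0.65 and -0.004. The differences from limma were larger in size, at -1.02, -0.64, -0.87, -0.80 and -0.09 in the same order. Junb was lower in both, and its deposited difference was the slightly larger in size (-0.24, against -0.23 from limma). The reason for the unequal sizes was not tested. In the authors' deposited table Ccn1, 1 of the 10 members, had a pairwise p-value under 0.05 (0.0413) on the sufficient diet, against 6.23% of all probe sets, and its false discovery rate over the 3 groups was 0.81. For the other pairs the authors' deposited table gave such a p-value to 0 members, against 4.89% and 7.74% of probe sets. These ratios describe the same samples and are no independent support.

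Other early-response genes were read from 4 lists chosen by function, and 0 of them passed limma's adjusted p of 0.05 in any of the 3 comparisons. Of 13 further EGR, NR4A, KLF and Myc-type factors, 8 were highest on wild-type array 1, among them Egr2 at 7.75 there against 5.85 to 6.10 elsewhere, Nr4a3 at 6.60 against 5.49 to 5.95 (all under the background limit), and the shear-responsive factor Klf2 at 10.28 against 9.31 to 9.64. Their list mean on that array was 0.37. Of 24 feedback regulators 10 were highest there, such as the kinase Sik1 (9.68 against 8.24 to 8.75), the antiproliferative Btg2 (9.77 against 8.68 to 9.19) and Zfp36, which speeds decay of AU-rich messengers (9.27 against 8.42 to 8.95), with a list mean of 0.17. Others in that list went differently: Gadd45b, at 8.11, was among the lowest there, and Spry2, at 7.82, was within the range of the rest.

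Secreted and cytoskeletal early genes were mixed. Thbs1 had 9.45 on wild-type array 1 and 7.09 to 7.62 on the others, and Arc 8.19 against 6.75 to 7.67, and 5 of 13 were highest there. Ccn2, the relative of Ccn1, had its highest signal on wild-type array 2 instead (10.54, against 10.13 and 9.80 on wild-type arrays 1 and 3). All arrays labelled Lrat-/- were lower, at 9.37 to 9.72. Its difference on the sufficient diet was -0.63 ± 0.18 with all arrays (limma, adjusted p = 0.444) and -0.65 without wild-type array 1, so its size did not depend on that array. Of 8 other AP-1 and Maf genes 3 were highest on wild-type array 1, Fosl2 at 8.18 against 7.51 to 7.86, with a list mean of 0.09. Maff had 6.36 there, its lowest.

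On the sufficient diet the median difference between genotypes was -0.08 for the EGR and NR4A list (0.07 without wild-type array 1), -0.04 for the feedback regulators (0.03), -0.10 for the secreted genes (0.00) and -0.02 for the AP-1 and Maf genes (0.05). The members stood at -0.36 and -0.07. An unadjusted p under 0.05 (limma) was reached by 0 of 13, 4 of 24, 1 of 13 and 1 of 8 genes, against 6.9% of all genes. The 4 feedback regulators were Spry2, which restrains receptor tyrosine kinase signalling (0.33 ± 0.12), Zfp36l1 (-0.29 ± 0.12), the survival factor Mcl1 (-0.21 ± 0.09) and Btg2 (-0.45 ± 0.19), with adjusted p from 0.627 to 0.716. The secreted gene was Ccn2 and the Maf gene was Maff (0.26 ± 0.10, adjusted p = 0.662), whose signals all lie under the background limit. In the EGR and NR4A list the lowest p belonged to Klf10, at 0.26 ± 0.13, followed by Egr2, at -0.67 ± 0.37 (limma, adjusted p = 0.751 and 0.761).

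The kinases and factors that act upstream of the early genes differed little on wild-type array 1 as a list, though single genes varied between arrays. Of 19 measured, 0 passed in any comparison, and 6 were highest on wild-type array 1, where their list mean was 0.06 against -0.12 to 0.04 on the other arrays. Srf, the serum response factor, had 9.65 there and 9.02 to 9.59 elsewhere, and Creb1, the cAMP response factor, had 8.39 against 8.25 to 8.65. These are messenger levels and do not measure the activity of the proteins. In the diet comparison the lowest unadjusted p among the 4 lists of other early genes belonged to Klf10, at -0.48 ± 0.13 (limma, adjusted p = 0.959).

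Several other measures were also unusual on wild-type array 1, and their part in the early gene signals was not tested. Inducible heat shock genes had a list mean of 0.67 there against -0.20 to 0.15 on the others, and 4 of 8 were highest there, with Hspa1b at 10.31 against 8.41 to 8.77, Hspa1a at 8.67 against 7.06 to 7.41, Hsp90aa1 at 10.96 against 9.83 to 10.18 and Hsph1 at 9.06 against 7.75 to 8.46. Hspa8 and Hspb1 were highest on wild-type array 3, and Dnajb1, at 8.63, was within the range of the rest. Of 12 clock genes some differed widely between arrays and others little, such as Dbp (13.14 to 13.38) and Nr1d2 (12.77 to 13.06). Their list mean was -0.22 on wild-type array 1 and -0.19 to 0.19 on the other arrays. Some genes of the list ran in opposite directions, which such a mean partly hides. On wild-type arrays 1, 2 and 3 Arntl had 7.98, 6.22 and 8.57, while Per2 had 7.01, 8.28 and 6.63. Ciart had 7.14 on wild-type array 1, its lowest, against 7.94 to 10.30, while Arntl had 7.98, between the 8.57 of wild-type array 3 and the 8.01 of Lrat-/- deficient array 1 on one side and 5.92 to 7.50 on the other. The mean of the immediate early genes was -0.13 on wild-type array 3 and -0.20 on Lrat-/- deficient array 1.

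No list of cell type markers stood as far out on wild-type array 1 as the 10 members did. In whole tissue, more cells of a type and more RNA per cell cannot be told apart. Endothelial markers averaged 0.26 there and 0.42 on wild-type array 2, against -0.27 to 0.12 on the other 7 arrays, and 4 of 8 were highest on wild-type array 1. Fibroblast markers averaged 0.19 (4 of 8 highest) against -0.27 to 0.14, and cardiomyocyte markers 0.11 (4 of 8) against -0.10 to 0.05. Neutrophil markers averaged 0.13, within the -0.35 to 0.46 of the other arrays, and 0 of 7 had a mean above the background limit. Macrophage markers were at -0.03, atrial at -0.32, smooth muscle at -0.14 and red cell markers at -0.33, each within the range of the other arrays. Marker means were also unequal between groups, though 0 passed limma's adjusted p of 0.05. With deficient diet against wild type all 8 endothelial markers were lower, with a median of -0.38 (-0.28 without wild-type array 1), and 5 of 8 had an unadjusted p under 0.05, against 9.04% of all genes. All 6 red cell markers were higher in that comparison, with a median of 1.03 and no overlap between the groups, against 11.5% of genes. On the sufficient diet the medians were -0.20 and 0.59. The part of these markers in the early gene signals was not tested.

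**Figure D4:**
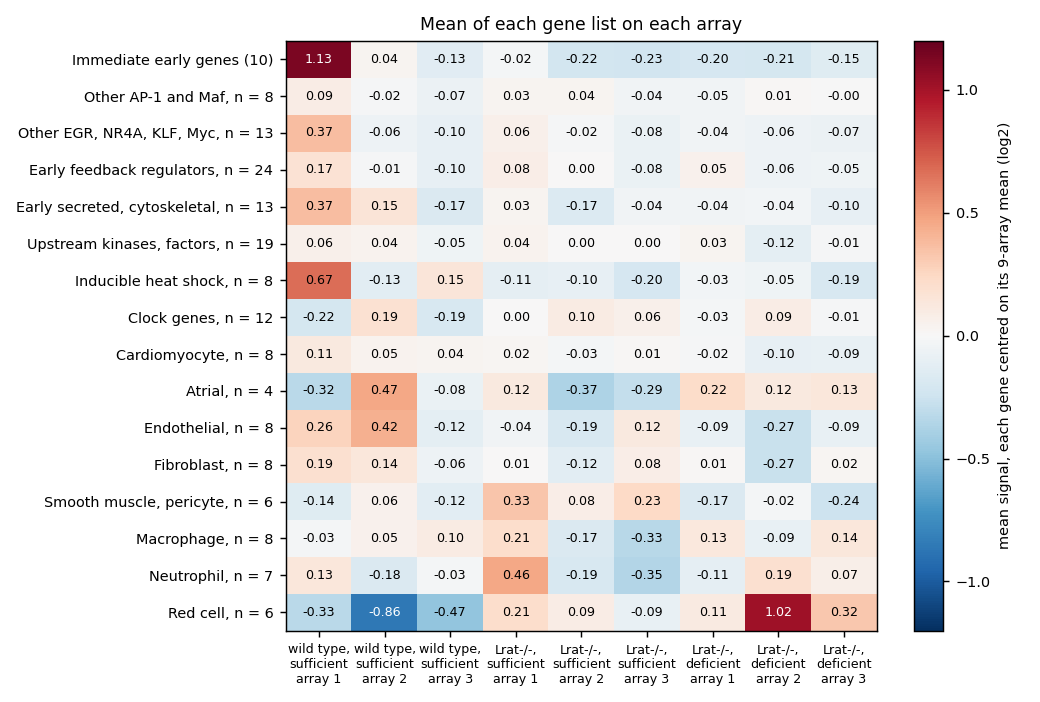
Mean signal (log2, each gene centred on its mean over the 9 arrays) of the immediate early genes and of 15 other gene lists (rows) on each array (columns), with the number of measured genes beside each name. Wild-type array 1 reads 1.13 for the immediate early genes, 0.67 for heat shock genes and 0.37 for 2 lists of other early genes, while red cell markers run from -0.86 on wild-type array 2 to 1.02 on Lrat-/- deficient array 2.

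Apart from the members, 11173 genes had a mean signal of 7 or more, and their likeness to the mean of the members over the 9 arrays was ranked by Pearson's r as a description. The 10 most alike were Etv3 (0.98), Thbs1 (0.97), Tnks (0.97), Col4a2 (0.97), Zbtb46 (0.97), Nova1 (0.97), Prob1 (0.97), Stat6 (0.96), Irf7 (0.96) and P4ha1 (0.96). All have their highest signal on wild-type array 1, by 0.11 (Stat6) to 1.83 (Thbs1), and share with the members the single array that sets the measure. Over the other 8 arrays their r ran from -0.06 (Nova1) to 0.72 (Stat6). Of the members themselves Fos (0.99) and Egr1 (0.98) followed the mean most closely and Fosb least (0.62). Without wild-type array 1 the members' own r ran from -0.47 in Fosb to 0.81 in Ier2, so they shared less of a pattern over the other 8 arrays.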

How the data were processed

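Left ventricle RNA was measured on 9 Affymetrix arrays. The authors deposited log2 signals after RMA, per the submitters' processing notes, which also name R 3.1.2 and build mm8 without a role. The log2 scale was read from the values. Their comparison table, per the file headers, sets a ratio and a p-value beside each pairing of groups, as deposited by the authors. The test behind it is not stated. A further table of the authors was read only for its text naming control probe sets, and its 9 columns of values under scan codes that match no label were not used.

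Of 35556 probe sets, 26107 carry a symbol in the authors' comparison table. The probe set with the highest mean stood for each of 23069 genes. Groups were compared with limma 3.58.1 in R 4.3.3 (1 mean per group over all 9 arrays, eBayes, two-sided) with Benjamini-Hochberg adjustment, and the method was tested on simulated data. Alternatives were fits of 2 groups alone, array weights, a robust trended eBayes, averaged or all probe sets, minimum mean signals of 6 and 7, renewed quantile or median scaling, the authors' ratios and leaving out each array. Exact permutation of 3 against 3 arrays cannot go below p = 0.1, so it was not used. Summaries used pandas 2.3.3 and figures matplotlib 3.10.9 (Python 3.11.15). Members, lists and alternatives were chosen with earlier results of these data known. The named genes are the members, up to 4 genes per list by lowest p-value, and the 10 genes most like the members. Predicted genes and clones were passed over in choosing those 10. List genes chosen for their signal on wild-type array 1, markers and clock genes were named after their values were seen.

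Replicate numbers recur in each group. Same-numbered arrays deviated together between the 2 groups labelled Lrat-/- (correlations of 0.212 to 0.264 over genes, each above 0.1) but not in every pairing with wild type (-0.142 to 0.125), so a fit with the replicate number as a block was run beside the diet comparison. The number of arrays limits the precision. A gene withheld for evaluation is not reported here.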

Additional observations from a re-analysis of the deposited data

How the results depend on the processing

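No member passed an adjusted p of 0.05 in any of the alternatives tried, in 574 refitted values with limma (lowest adjusted p = 0.0979, Ier2 on the deficient diet against wild type without wild-type array 3). The replicate block was also fitted with only the 2 groups labelled Lrat-/- in the model (an alternative chosen after seeing the data). Every group holds the same replicate numbers, so the block cannot change a difference between group means. The members' median of -0.04 for diet is therefore the same with and without it by design. The block changed no call of a member. Leaving out 1 array at a time, the members' median ran from -0.62 (array 3 of wild type dropped) to -0.07 (array 1 dropped) for genotype, from -0.07 to 0.02 for diet, turning above 0 without Lrat-/- sufficient array 1 or deficient array 1, and from -0.64 to -0.20 for both together. The same 9 fits turned the sign of some small differences. For genotype these were Fosb (-0.23 to 0.0654), Atf3 (-0.62 to 0.0666) and Dusp1 (-0.63 to 0.0266). For diet they were Junb (-0.077 to 0.0274), Nr4a1 (-0.37 to 0.22), Fosb (-0.17 to 0.09) and Ier2 (-0.10 to 0.0063), and for both together Fosb (-0.23 to 0.0133), Jun (-0.48 to 0.0803) and Atf3 (-0.53 to 0.15). Fits of 2 groups alone, the replicate block, the robust trended eBayes and minimum mean signals cannot change a member's difference. The same holds for averaged or all probe sets, because each member has a single probe set, so unchanged signs there are no check. Among array weights, renewed scaling and the authors' deposited ratios, only Junb for diet in those ratios turned sign (0.10 on the log2 scale). The count of all genes past the threshold, 31 for genotype and 30 for both together, was 5 and 7 when the third group was left out, and 76 for both together with array weights. Leaving out 1 array gave 11 to 109 genes for genotype and 11 to 283 for both together. The highest counts came when wild-type array 3 was dropped, and dropping wild-type array 1 gave 15 in each. For genotype, arrays 2 and 3 of Lrat-/- with sufficient diet gave 11 each, and the deficient arrays 14, 14 and 15. For both together the deficient arrays gave 14, 12 and 11. Diet gave 0 genes in every fit. The cause of these shifts was not tested. Fosb on all arrays, Fos, Atf3, Junb and Ier2 on most and Nr4a1 on 3 lay under the 95th percentile of negative control signals, which limits the sizes given for them.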
